A study of Mus musculus with 76 samples.

Results

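The comparison described here asks how gene expression in the kidney left after partial nephrectomy (PNx) differed with and without transplanted control cells. The surgery removes part of the kidney mass. It sets 5 kidney libraries of mice with PNx and control cells against 5 kidney libraries of mice with PNx and no transplant, chosen by the surgery and transplantation labels, 10 of the 76 libraries of the series. All mice were male Fox Chase SCID mice (CB17/Icr-Prkdcscid/IcrlcoCrl), which lack working T and B lymphocytes, and were 12 weeks old. Bulk RNA of heart, kidney and visceral fat (VFAT) was sequenced in 5 arms, the other arms being sham surgery (Sham) and PNx with cells labelled Lenti-adipo-NaKtide or Lenti-adipo-scrambled, and those kidneys enter here through the shared estimate of the spread and as reference levels. The labels do not say what the control cells are, how many were given, when the tissue was taken or at what hour, nor whether an arm's libraries were made from different mice, so the tests rest on library-to-library spread, which may be technical. Libraries are called PNx 1 to 5 and control cells 1 to 5 after their labels.

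Levels are given as CPM, the usual depth-scaled count, with the library total adjusted by TMM. Total counts ran from 7528968 to 16912788 in PNx and from 1241590 to 11096297 with control cells, the lowest being control cells 5, where a single read is worth 1.23 CPM (the level of Arntl there). The 18 proximal tubule genes summed to between 14065 and 40003 CPM in the 10 libraries, and the 6 lymphocyte genes to at most 5.13 CPM, so the defining markers of the kidney were present and those of lymphocytes were near 0. The libraries were not uniform within either arm. The mean log2 level of the shortest 25% of genes minus that of the longest 25% was low in PNx 1 (−0.99) and PNx 2 (−1.08), while PNx 3, 4 and 5 gave 0.16, −0.002 and 0.17. It was −1.08, −0.99 and −0.51 in control cells 1, 2 and 3 and 0.25 and 0.26 in control cells 4 and 5. Small structural RNAs took 3.78% of the counts of control cells 5 and at most 0.0404% elsewhere in both arms, and neutrophil genes summed to 2610 CPM in PNx 3 against 2.28 to 138 CPM elsewhere. For many of the genes below, the value without PNx 3 or control cells 5 stands beside the main one.

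**Figure D1:**
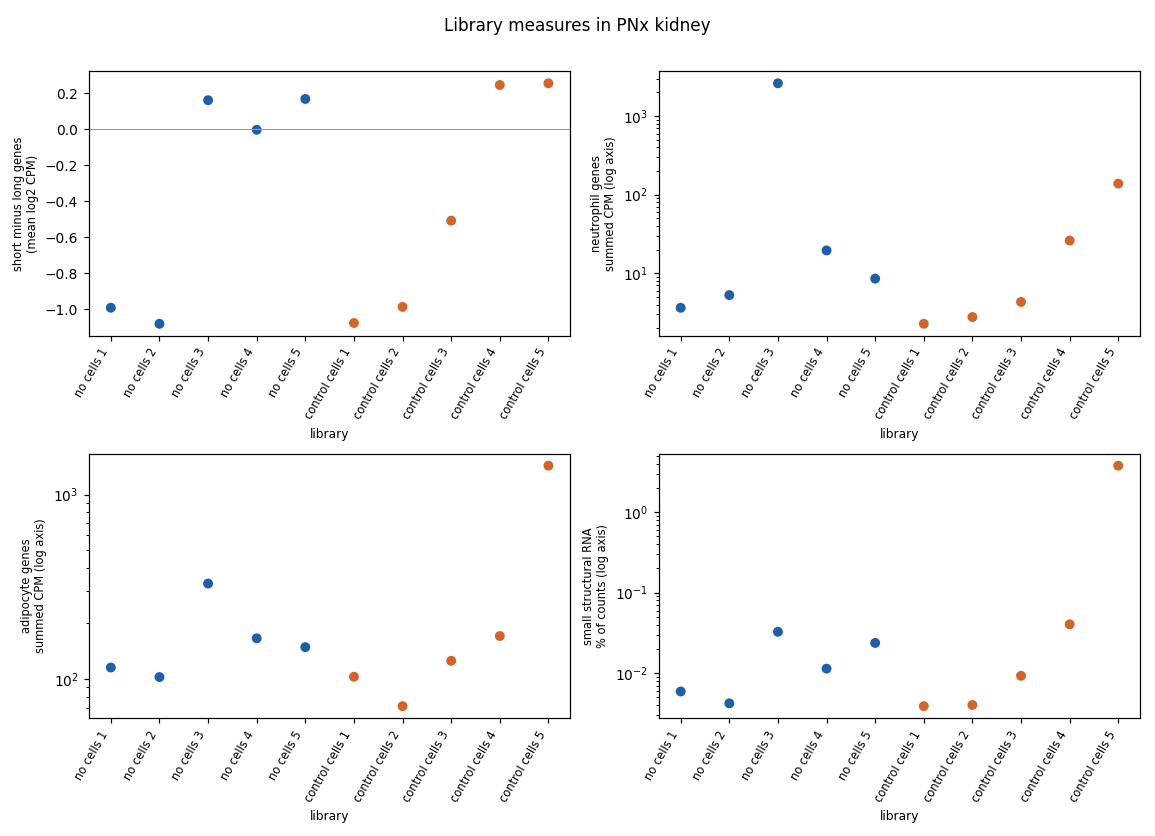
Measures of the 10 kidney libraries. Top left, mean log2 CPM of short minus long genes (no unit beyond log2); top right and bottom left, summed CPM of the neutrophil and adipocyte genes on log axes; bottom right, the percentage of counts in small structural RNA on a log axis. Blue points are PNx without cells and orange points PNx with control cells. PNx 3 stands at 2610 CPM of neutrophil genes, and control cells 5 at 3.78% small structural RNA and 1435 CPM of adipocyte genes.

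No gene passed the test. Over 16307 genes edgeR's quasi-likelihood test called 0 (0%) at a Benjamini-Hochberg adjusted p under 0.05, with 1049 (6.43%) at an unadjusted p under 0.05, and the lowest adjusted p was 0.253. DESeq2 called 20 genes on the same counts, 18 higher and 2 lower with control cells. All values below are therefore given as levels and differences. Differences are log2 values, control cells minus PNx. The standard error (SE) beside them was worked out from the difference and the F value of its edgeR test. Names were given only to genes that average 2 or more in log2 CPM and are not predicted genes. Among these the lowest p on the higher side belonged to Per2, Coq10b, Per3, Bhlhe40, Lonrf1 and Exoc4. On the lower side it belonged to Ndrg1, Gdf15, Ppard, Parvb, Adamtsl2 and Mrvi1. The lowest p in DESeq2 belonged to a predicted gene, Gm45819 (3.18, DESeq2 adjusted p = 0.00071).

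The circadian clock is a feedback loop found in nearly every cell. Arntl (BMAL1) pairs with Clock or Npas2 and switches on the Per and Cry genes, Nr1d1, Nr1d2, Ciart, Bhlhe40 and Bhlhe41, whose products in turn repress the activators, and the PAR-domain factors Dbp, Tef and Hlf carry the rhythm to output genes while Nfil3 opposes them at the same sites. In the kidney the loop is known for setting daily rhythms of sodium and water handling. The main edgeR fit called no clock gene. With control cells 7 of 10 repressors and 4 of 5 output genes measured higher at an unadjusted p under 0.05, and the activators Arntl and Npas2 measured lower, than in PNx kidneys without cells. With only the 2 arms fitted, 10 of 18 clock genes had such a p, as did 273 of 14897 genes. The count of repressors was 5 (without control cells 2) to 9 (without PNx 3) when single libraries were left out. Of the 19 clock genes named here, DESeq2 called 4, among 20 calls in all, and limma voom with quality weights 9, among 2088. With the short-to-long gene measure as covariate edgeR called 2, among 18. The labels give no hour of collection, so whether the arms differed in hour was not tested.

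Among the repressors, 7 of 10 genes were higher at an unadjusted p under 0.05, where 2.45% of all genes were, and none was lower. Per2 (ENSMUSG00000055866, chromosome 1, 91415982 to 91459324, GRCm38), a period protein that holds back BMAL1, measured 6.11, 8.85, 10.8, 4.40 and 12.3 CPM in PNx 1 to 5 and 25.4, 30, 28.7, 13.3 and 25.9 CPM in control cells 1 to 5. The arms did not overlap, although control cells 4 stood only just above the highest PNx library. The difference was 1.54 (SE 0.33, 2.91-fold, edgeR adjusted p = 0.272), and the Sham mean was 33.9 ± 9.29 CPM (SD). Per3 (ENSMUSG00000028957, chromosome 4, 151003652 to 151044665), its paralog, measured 7.02, 9.70, 7.76, 5.05 and 10.1 CPM in PNx and 24.2, 29.6, 19.9, 12.8 and 14.8 CPM with control cells. Here too every library with control cells was above every PNx library (1.39, SE 0.30, 2.63-fold, edgeR adjusted p = 0.272), and the Sham mean was 28.6 ± 3.81 CPM. Bhlhe40 (ENSMUSG00000030103, chromosome 6, 108660629 to 108666925), which competes with BMAL1 for its sites, measured 46.8 to 54.2 CPM in PNx and 62.1 to 124 CPM with control cells (0.85, SE 0.186, edgeR adjusted p = 0.272). Its PNx libraries lay close together, and its Sham mean was 88.9 ± 8.41 CPM. These 3 repressors were the ones whose arms did not overlap, where 0.184% of all genes had every library with control cells higher.

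The other repressors overlapped between the arms. Nr1d2, the nuclear receptor REV-ERB beta, measured 19.2 to 54.3 CPM in PNx and 43.2 to 87.7 CPM with control cells (0.84, SE 0.261, edgeR adjusted p = 0.534). Ciart, another repressor of the loop, ranged from 1.28 to 15.8 CPM in PNx and from 6.17 to 24.2 CPM with control cells (1.39, SE 0.557, edgeR adjusted p = 0.717). Bhlhe41 differed by 0.96 (SE 0.322, edgeR adjusted p = 0.603), with its lowest level of both arms, 1.23 CPM, in control cells 5. The cryptochrome Cry1 differed by 1.17 (SE 0.546, edgeR adjusted p = 0.759), and its highest level, 13.6 CPM, was in control cells 5. Without PNx 3 it differed by 1.99, and without control cells 4 and 5 by 0.88. Cry2 (0.28, and 0.46 without PNx 3) and Per1 (0.32) were above 0 without a p under 0.05. Per1, which also answers acute stimuli, measured 11.7 to 19.9 CPM in 4 PNx libraries and 86.9 CPM in PNx 3, against 30.7 to 44.4 CPM with control cells, and without PNx 3 it differed by 1.24. Nr1d1 (REV-ERB alpha) was level, at 51.3 to 115 CPM in PNx and 58.0 to 125 CPM with control cells (−0.02, SE 0.248).

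Among the 5 output genes, 4 were higher at an unadjusted p under 0.05 and 1, Nfil3, was lower, where 3.99% of all genes were. Tef (ENSMUSG00000022389, chromosome 15, 81802421 to 81826863) measured 164, 192, 140, 182 and 285 CPM in PNx and 298, 339, 299, 361 and 319 CPM with control cells. PNx 5 came nearest to the control cell range without reaching it (0.75, SE 0.186, edgeR adjusted p = 0.320), and the Sham mean was 346 ± 28.4 CPM. Dbp measured 47.0, 45.9, 77.8, 89.3 and 179 CPM in PNx and 161, 199, 191, 226 and 110 CPM with control cells. PNx 5 was above control cells 1 and 5, so the arms overlapped (1.02, SE 0.364, edgeR adjusted p = 0.647). Hlf (0.50, SE 0.196) and the deubiquitinase Usp2 (0.58, SE 0.275) also overlapped. Nfil3 measured 2.1 to 3.63 CPM in 4 PNx libraries, 18.8 CPM in PNx 3 and 0.716 to 2.54 CPM with control cells (−1.82, SE 0.572, edgeR adjusted p = 0.552), and without PNx 3 the difference was −0.77.

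Of the 5 activators, Arntl and Npas2 were lower at an unadjusted p under 0.05. Arntl (ENSMUSG00000055116, chromosome 7, 113207465 to 113314126) measured 6.37, 9.33, 1.31, 3.75 and 0.841 CPM in PNx and 1.52, 0.537, 0.376, 0 and 1.23 CPM with control cells. PNx 1 and 2 were the high libraries, PNx 3 and 5 lay in the control cell range, and the Sham mean was 0.992 ± 0.425 CPM (difference −2.61, SE 0.705, edgeR adjusted p = 0.390). Npas2 (ENSMUSG00000026077, chromosome 1, 39193731 to 39363236) measured 7.54, 7.57, 1.58, 5.18 and 2.1 CPM in PNx and 1.27, 1.25, 0.845, 0 and 2.47 CPM with control cells. It had the same high libraries and a single crossing, of control cells 5 with PNx 3 and 5 (−2.25, SE 0.631, edgeR adjusted p = 0.424). Clock itself (−0.06) and the activating nuclear receptor Rora (0.55) had no p under 0.05.

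**Figure D2:**
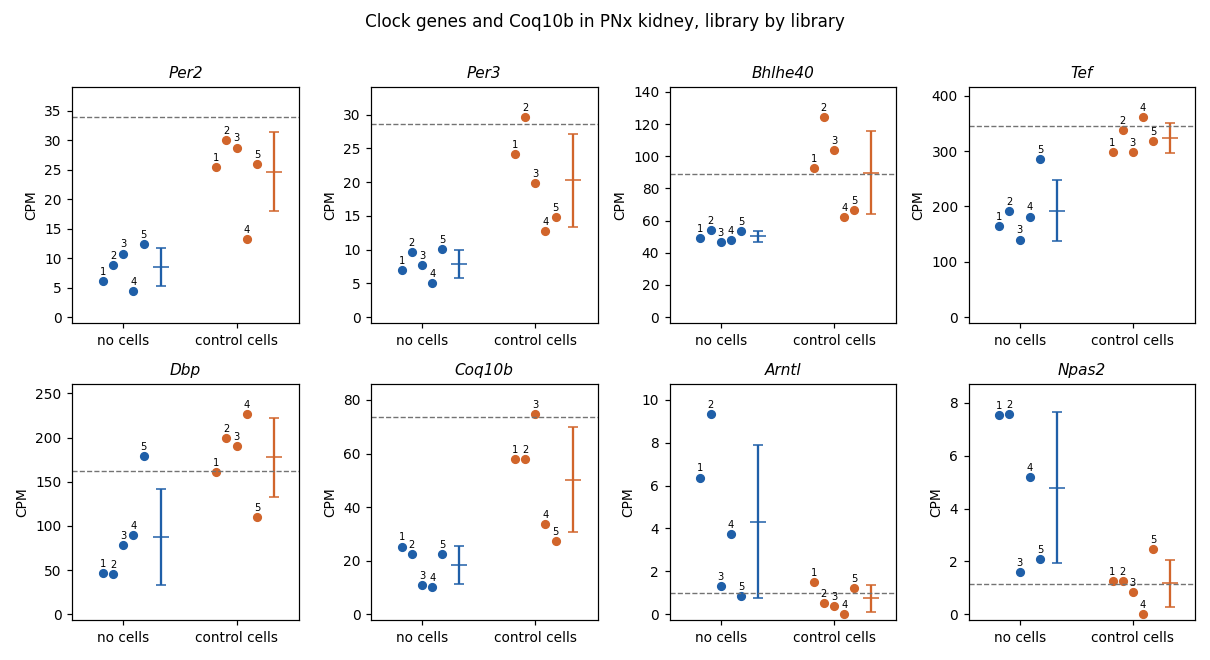
Levels (CPM, linear axes) of 7 clock genes and Coq10b in PNx kidney without cells (blue) and with control cells (orange). Each point is a library with its number, the bars are mean ± SD of 5 libraries, and the dashed line is the Sham mean. Per2, Per3, Bhlhe40, Tef and Coq10b do not overlap between the arms, and Arntl and Npas2 are highest in PNx 1 and 2.

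**Figure D3:**
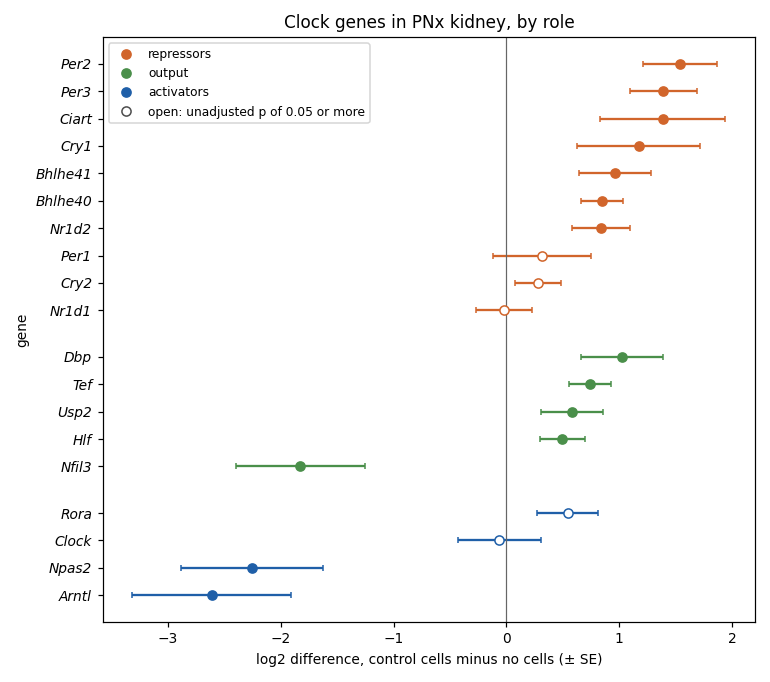
Log2 difference (control cells minus no cells, ± SE) of 19 clock genes, grouped as repressors, output genes and activators. Filled points have an unadjusted p under 0.05. The repressors run from −0.02 for Nr1d1 to 1.54 for Per2, and Arntl is lowest at −2.61.

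In all, the control cell mean lay nearer to the Sham mean than the PNx mean did, on the log2 scale, for 17 of the 20 clock genes. The same count was not made over all genes, so no background stands beside it. The other cell arms, which share no kidney library with PNx but are fitted together with it, give a side-by-side reading. Per2 averaged 8.73 ± 4.45 CPM with scrambled cells and 19.3 ± 6.46 CPM with NaKtide cells, and Tef 175 ± 35.8 and 239 ± 60.7 CPM. Arntl averaged 4.89 ± 2.57 CPM with scrambled cells and 3.04 ± 2.39 CPM with NaKtide cells. The contrast of scrambled minus control cells, which shares the control cell libraries with the main comparison, gave −1.50 for Per2 (SE 0.327, edgeR adjusted p = 0.177), −0.88 for Tef (SE 0.187, adjusted p = 0.176) and 2.75 for Arntl (SE 0.704, adjusted p = 0.190). In that contrast 16 of the 20 clock genes had an unadjusted p under 0.05, where 10.7% of all genes did, and none was called, while edgeR called 2 of 16307 genes (0.0123%). Those were Rasd2, a small GTPase (−1.44, edgeR adjusted p = 0.0149), and the transglutaminase Tgm1 (−1.18, adjusted p = 0.0452), and Dtx4, a ubiquitin ligase of Notch signalling, had the next lowest p (1.32, adjusted p = 0.0810). Neither Rasd2 nor Tgm1 was called without control cells 2, control cells 3 or scrambled cells 3, where the edgeR adjusted p of Rasd2 was 0.119, 0.0995 and 0.0705. Only 1 gene was called without control cells 4, control cells 5 or scrambled cells 2. Without scrambled cells 4 or 5 only 1 lower gene was called, so at least 1 of these 2 calls was lost there too. Tgm1 was also not called without a filter on low counts (edgeR adjusted p = 0.0547).

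The clock values were taken apart by the short-to-long gene measure, since it split both arms. In PNx 1 and 2 against control cells 1 to 3, the libraries with low values of that measure, 15 of the 19 clock genes named above had an unadjusted p under 0.05, where 2.57% of all genes did. There Per2 differed by 1.88, Dbp by 1.99, Ciart by 3.27 and Arntl by −3.25 (edgeR adjusted p = 0.341 for each). In PNx 3 to 5 against control cells 4 and 5, 3 of 19 had such a p, where 11.5% of all genes did, so that this share was near the background. The differences there were 0.95 for Per2 (adjusted p = 0.533), 0.57 for Dbp, 0.75 for Ciart and −3.05 for Arntl. Tef measured 0.82 in the first set and 0.75 in the second. With the measure as a covariate edgeR called 18 genes, among them Bhlhe40 (0.80, adjusted p = 0.0455) and Arntl (−2.98, adjusted p = 0.0437), and Per2 had an adjusted p of 0.0598.

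The binding sites of the loop are short. CLOCK and BMAL1 bind the E-box CACGTG, and DBP, TEF, HLF and NFIL3 bind D-boxes, searched here as TTATGTAA or TTATGCAA with their reverse complements TTACATAA and TTGCATAA. The set of RefSeq (GRCm38.p6) upstream sequences used here, 250 bases each, covered 17 of the 20 clock genes. Per2 and Bhlhe40 were not in that set and were not searched. An E-box was present in 5 of the 17 and a D-box in 2, and 11 had neither, while 6.02% of all 32851 upstream sequences held an E-box and 1.5% a D-box. The promoters of Per3, Ciart, Tef and Coq10b are shown because these genes were among those with higher levels and hold such letters, which are in capitals. They are written 5′ to 3′ on the gene's strand and end at the base before a transcript start listed by RefSeq, which for Tef and Ciart lies inside the gene span of the GENCODE annotation. A match of letters is not evidence of binding.
Per3, chr4:151044666-151044915, minus strand: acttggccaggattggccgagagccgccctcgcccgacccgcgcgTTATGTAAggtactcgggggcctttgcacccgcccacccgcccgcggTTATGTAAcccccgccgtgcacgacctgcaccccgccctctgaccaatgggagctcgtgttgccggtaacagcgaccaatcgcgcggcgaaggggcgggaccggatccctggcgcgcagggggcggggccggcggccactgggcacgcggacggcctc
Ciart, chr3:95882229-95882478, minus strand: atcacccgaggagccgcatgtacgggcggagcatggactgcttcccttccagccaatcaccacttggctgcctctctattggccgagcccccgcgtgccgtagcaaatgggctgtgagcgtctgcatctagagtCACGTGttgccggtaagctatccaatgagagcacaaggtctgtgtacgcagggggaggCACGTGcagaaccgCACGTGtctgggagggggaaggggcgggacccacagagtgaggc
Tef, chr15:81811164-81811413, plus strand: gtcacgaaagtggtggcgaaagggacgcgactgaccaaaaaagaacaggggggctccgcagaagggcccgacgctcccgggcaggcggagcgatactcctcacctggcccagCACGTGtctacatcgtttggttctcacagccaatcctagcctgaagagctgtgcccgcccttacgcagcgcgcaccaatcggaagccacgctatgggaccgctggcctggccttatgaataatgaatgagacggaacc
Coq10b, chr1:55052520-55052769, plus strand: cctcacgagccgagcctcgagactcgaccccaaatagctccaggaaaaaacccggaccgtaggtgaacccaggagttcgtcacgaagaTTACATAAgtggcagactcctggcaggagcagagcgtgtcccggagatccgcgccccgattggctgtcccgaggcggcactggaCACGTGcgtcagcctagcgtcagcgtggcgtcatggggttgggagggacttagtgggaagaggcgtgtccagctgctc
Per3 has D-boxes that start 205 and 158 bases before that start, Ciart has E-boxes at 116, 58 and 44 bases, Tef has an E-box in each of its listed promoters, at 138 bases in the one printed and 127 in the other, and Coq10b has an E-box at 78 and a D-box at 162 bases. Per3 differed by 1.39, Ciart by 1.39, Tef by 0.75 and Coq10b by 1.49, but these genes were picked for their higher levels. Their differences therefore do not bear on the motifs. Per1, with an E-box at 166 and a D-box at 24 bases, differed by 0.32, and by 1.24 without PNx 3. Bhlhe41 and Cry1, each with an E-box, differed by 0.96 and 1.17. Of the 11 clock genes with neither, Dbp differed by 1.02 and Arntl by −2.61.

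Outside the clock lists, Coq10b and Ndrg1 had adjusted p as low as Per2. Coq10b (ENSMUSG00000025981, chromosome 1, 55052770 to 55072702), a mitochondrial coenzyme Q binding protein, measured 25.2, 22.4, 10.9, 10.2 and 22.4 CPM in PNx and 58.0, 57.8, 74.7, 33.7 and 27.2 CPM with control cells. The arms did not overlap, with control cells 5 just above PNx 1 (1.49, SE 0.327, 2.82-fold, edgeR adjusted p = 0.272), and the Sham mean was 73.5 ± 13.0 CPM. It differed by 1.43 among the libraries with low short-to-long values and by 1.11 among those with high ones. Exoc4, a subunit of the exocyst that tethers vesicles to the plasma membrane, measured 25.7 to 40.2 CPM in PNx and 48.3 to 64.2 CPM with control cells, without overlap (0.69, SE 0.16, edgeR adjusted p = 0.279). Lonrf1, a RING finger protein, measured 4.21 to 9.37 CPM in PNx and 8.64 to 21.2 CPM with control cells, with a slight overlap (1.03, SE 0.232, adjusted p = 0.279). DESeq2 called all 6 of these higher genes, with adjusted p of 0.0153 for Per2, Per3, Bhlhe40 and Coq10b.

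DESeq2 also called Tef and 5 genes named here after their values were seen. Ak4, a mitochondrial adenylate kinase, measured 129 to 442 CPM in PNx and 452 to 681 CPM with control cells (0.93 in edgeR). The death receptor Tnfrsf21 (0.71), the vitamin transporter Slc5a6 (0.73) and the prion protein gene Prnp (0.73) likewise had no overlap of the arms. Wee1, a kinase that restrains entry into mitosis, overlapped, with 2.72 to 8.85 CPM in PNx and 7.41 to 17.1 CPM with control cells (1.32). Their edgeR adjusted p was 0.320 each.

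On the lower side, Ndrg1 (ENSMUSG00000005125, chromosome 15, 66929318 to 66969640), a stress- and hypoxia-responsive gene, measured 2315, 2086, 1045, 1849 and 1481 CPM in PNx and 756, 872, 708, 785 and 789 CPM with control cells. Every library with control cells was below every PNx library and the former lay close together (−1.17, SE 0.253, 2.24-fold lower, edgeR adjusted p = 0.272), near the Sham mean of 880 ± 180 CPM. It differed by −1.49 and −0.89 in the sets of libraries with low and high short-to-long values, and by −1.31 without PNx 3. DESeq2 called it (−1.14, adjusted p = 0.0158), as did edgeR with the short-to-long measure as covariate (−1.15, adjusted p = 0.0455). Ppard (ENSMUSG00000002250, chromosome 17, 28232700 to 28301474), a nuclear receptor for fatty acids, measured 31.6, 37.7, 27.1, 37.1 and 22.6 CPM in PNx and 19.0, 17.6, 14.7, 17.1 and 16.1 CPM with control cells. Again the arms did not overlap (−0.88, SE 0.221, edgeR adjusted p = 0.320), and the Sham mean was 17.0 ± 1.47 CPM. Parvb, a focal adhesion protein (−0.91), Adamtsl2, a secreted matrix protein (−1.26, and −0.73 without PNx 3), and Mrvi1, a regulator of calcium release in smooth muscle (−0.82), overlapped between the arms, with edgeR adjusted p of 0.334, 0.335 and 0.383. For groups without overlap the background was 0.38% of all genes on the lower side.

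**Figure D4:**
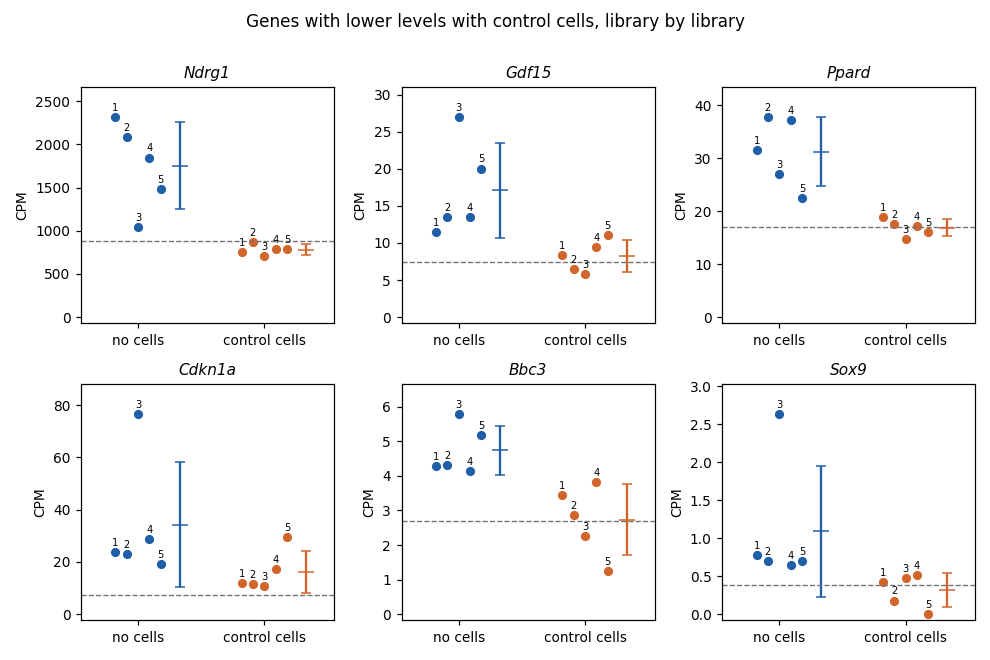
Levels (CPM, linear axes) of 6 genes with lower values with control cells. Each point is a library with its number, blue without cells and orange with control cells, the bars are mean ± SD of 5 libraries, and the dashed line is the Sham mean. Ndrg1, Gdf15, Ppard, Bbc3 and Sox9 do not overlap between the arms, and PNx 3 is highest for Gdf15, Cdkn1a, Bbc3 and Sox9.

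The p53 pathway, which answers DNA damage and other stress by arresting or killing cells, had 3 of 14 target genes lower at an unadjusted p under 0.05 and none higher, where 3.99% of all genes were lower at such a p, and the list median was −0.06 against 0.02 for all genes. Gdf15 (ENSMUSG00000038508, chromosome 8, 70629393 to 70632456), a stress cytokine that p53 among other factors switches on, measured 11.4, 13.5, 27.0, 13.5 and 20 CPM in PNx and 8.35, 6.53, 5.82, 9.46 and 11.1 CPM with control cells. The arms did not overlap, although control cells 5 nearly met PNx 1 (−1.13, SE 0.275, edgeR adjusted p = 0.320), and without PNx 3 the difference was −0.90. Cdkn1a (ENSMUSG00000023067, chromosome 17, 29090976 to 29100727), the cell cycle inhibitor p21, measured 23.9, 22.9, 76.5, 28.9 and 19.3 CPM in PNx and 11.9, 11.4, 10.6, 17.1 and 29.6 CPM with control cells. Only control cells 5 reached the PNx range (−1.23, SE 0.365, edgeR adjusted p = 0.506), the Sham mean was 7.25 ± 2.81 CPM, and without PNx 3 the difference was −0.71. Bbc3, the death effector PUMA, measured 4.14 to 5.78 CPM in PNx and 1.23 to 3.83 CPM with control cells, without overlap (−0.69, SE 0.235, edgeR adjusted p = 0.613). The remaining p53 targets lay between −0.39 and 0.25.

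Cell division genes pointed mostly downward without single genes standing out. Of 17 mitosis genes tested, 16 were below 0, 1 of them, the kinase Cdk1, at an unadjusted p under 0.05 (−0.53, SE 0.247, edgeR adjusted p = 0.759), and the median was −0.40. Cdk1 measured 4.14 to 6.31 CPM in PNx and 2.28 to 4.41 CPM with control cells, and Mki67, the proliferation marker, 7.43 to 13.7 and 4.86 to 11.1 CPM (−0.53, SE 0.35, adjusted p = 0.842). The summed level of the mitosis list was 48.8 to 77.8 CPM in PNx and 29.5 to 59.5 CPM with control cells, so the arms overlapped. Of 15 DNA replication genes 13 were below 0, with a median of −0.18 and none at such a p. Across all genes 52.4% were above 0.

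**Figure D5:**
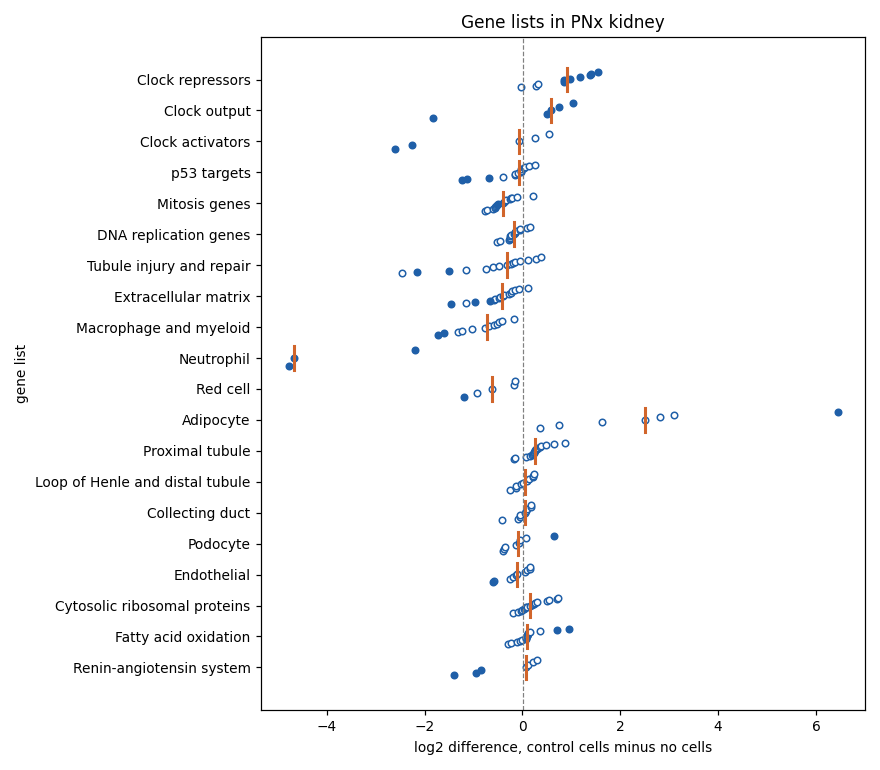
Log2 difference (control cells minus no cells) of each tested gene in 20 of the gene lists. Filled points have an unadjusted p under 0.05, orange bars are list medians and the dashed line is the median of all genes, 0.02. The clock repressors have a median of 0.91, the mitosis genes −0.40 and the extracellular matrix genes −0.43.

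Nephron segment markers differed little. Of 18 proximal tubule genes 16 were above 0, with a median of 0.26, and none had an unadjusted p under 0.05. The lactate transporter Slc5a12 measured 110, 128, 38.1, 27.8 and 29.9 CPM in PNx and 234, 185, 66.5, 46.8 and 71.6 CPM with control cells, so that PNx 1 and 2 and control cells 1 and 2 were the high libraries of their arms (0.87, SE 0.44, edgeR adjusted p = 0.779). Slc34a1, which takes up phosphate, differed by 0.29 (SE 0.238, edgeR adjusted p = 0.868), and by 0.12 without PNx 3. Umod, the protein of the thick ascending limb, measured 1697 to 3578 CPM in PNx and 2169 to 2921 CPM with control cells (0.002, SE 0.201), and the water channel Aqp2 of the collecting duct differed by 0.18 (SE 0.417), by 0.60 without PNx 3 and by −0.62 without control cells 4 and 5. Of the podocyte genes the chloride channel family member Clic5 was higher at an unadjusted p under 0.05 (0.64, SE 0.256, edgeR adjusted p = 0.711). Among endothelial genes the TGF-beta co-receptor Eng was lower (−0.59, SE 0.235, adjusted p = 0.71), with 171 CPM in PNx 3 and 47.8 to 116 CPM elsewhere, and −0.29 without PNx 3. In bulk tissue a lower share of a cell type and less RNA per cell cannot be told apart.

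Of 16 matrix genes 15 had a difference below 0, as 47.6% of all genes did, and the list median was −0.43. At an unadjusted p under 0.05, 3 of them were lower, against 3.99% of all genes. Col4a2, a chain of basement membrane collagen, measured 152, 182, 213, 152 and 107 CPM in PNx and 124, 129, 92.7, 88.7 and 66.7 CPM with control cells (−0.67, SE 0.221, edgeR adjusted p = 0.587). PNx 5 was the one PNx library inside the control cell range. The fibrillar collagen gene Col1a1 measured 10.1 to 50.5 and 6.17 to 16.7 CPM (−0.97, SE 0.46, adjusted p = 0.767), and −0.62 without PNx 3.

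Injury and leukocyte genes rested largely on PNx 3. Lcn2, which injured tubules and neutrophils secrete, measured 15.7, 6.77, 1137, 22.9 and 8.41 CPM in PNx and 23.3, 10.8, 6.57, 28.9 and 180 CPM with control cells. It differed by −2.46 with PNx 3 (SE 1.2, edgeR adjusted p = 0.771) and by 1.65 without it. Anxa1, an anti-inflammatory annexin, was at 128 CPM in PNx 3 and 4.20 to 10.7 CPM in all other libraries of both arms (−2.16, and −0.14 without PNx 3). Sox9, a factor of tubule repair, was below 3 CPM throughout, at 0.647 to 2.63 CPM in PNx and 0 to 0.511 CPM with control cells (−1.51, SE 0.55, edgeR adjusted p = 0.660, and −0.92 without PNx 3). The tubular injury marker Havcr1 (KIM-1) measured 12.6 to 29.3 and 17.9 to 23.5 CPM (0.11, SE 0.275, and 0.30 without PNx 3). All 12 macrophage and myeloid genes were below 0, with a median of −0.73, and their sum was 1765 CPM in PNx 3 and 128 to 589 CPM elsewhere. The signalling adaptors Fcer1g (−1.60) and Tyrobp (−1.72) measured 0.07 and 0.29 without PNx 3, while the macrophage receptor Adgre1 had 3.29 CPM there, within the range of the others (−0.18, and −0.013 without PNx 3). S100a8 and S100a9, calcium binders of neutrophils, were at 688 and 1636 CPM in PNx 3, at 46.9 and 82.7 CPM in control cells 5 and at most 14.3 CPM elsewhere. Their differences were −4.78 and −4.66, and 1.52 and 1.57 without PNx 3. Csf3r, the receptor for granulocyte colony-stimulating factor, the cytokine Il1b and the transcription factor Cebpd measured −2.19, −3.60 and −2.20, and −0.27, −0.52 and −0.16 without PNx 3.

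Other systems that a transplant or kidney loss may touch had no called gene. In the renin-angiotensin list 3 of 7 genes were lower at an unadjusted p under 0.05, where 3.99% of all genes were. The list ran from −1.41 to 0.30, with a median of 0.06. The renin gene Ren1 measured 59.6 to 81.3 CPM in 4 PNx libraries, 366 CPM in PNx 3 and 47.1 to 88.9 CPM with control cells (−0.96, SE 0.359, edgeR adjusted p = 0.667), and −0.13 without PNx 3. The kinase Src measured 31.9 to 42.0 and 32.7 to 46.9 CPM (0.03, SE 0.119). In fatty acid oxidation, 2 of 17 genes had an unadjusted p under 0.05, both higher, where 2.45% of all genes were. The nuclear receptor Ppara was among the 2 (0.95, SE 0.412), and the list median was 0.08. In sterol synthesis Hmgcs1 measured 0.55 (SE 0.21, and 0.36 without PNx 3), 1 of 15 genes. G6pdx of the pentose phosphate pathway measured −0.49 (−0.17 without PNx 3), 1 of 18 NRF2 targets, and the glutathione transferase Gsta2, whose reads may be split with near copies, −0.15 (SE 0.303). Over all genes 6.43% had such a p in either direction, and 1 of 15 and 1 of 18 are near that share. Single genes at such a p were also the chaperones Hsph1 (0.44) and Pdia6 (−0.28) and the mitochondrial genome's mt-Co2 (−0.53). None had an edgeR adjusted p below 0.66.

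Adipocyte genes were above 0 in 7 of 7 cases, through control cells 5. Their sum was 1435 CPM in that library, 102 to 329 CPM in PNx and 71.2 to 171 CPM in control cells 1 to 4. Retn, the adipocyte hormone resistin, was at 114 CPM in control cells 5 and at most 1.28 CPM in the other 9 libraries, and its difference was 6.45 with control cells 4 and 5 and −0.49 without them. Red cell genes summed to 18450 CPM in PNx 3 and 13199 CPM in control cells 5, against 752 to 7614 CPM elsewhere, and Alas2, the heme enzyme of red cell precursors, differed by −1.2 (−0.05 without PNx 3). Whether these cells or their RNA bear on the other values in these libraries was not tested.

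The same contrast in heart and VFAT was set against the kidney as an interaction. Per2 differed by 0.15 in Heart and 0.52 in VFAT, Per3 by 0.70 and 0.41, and Arntl by 0.09 and −1.61, none of them called. Of the 10 repressors 9 were above 0 in Heart (median 0.29) and 8 in VFAT (median 0.46). At an unadjusted p under 0.05, 0 of them were higher in Heart and 1 in VFAT. No share over all genes was taken for these counts. The difference of kidney minus Heart was called for 0 of 17263 genes (0%, 4.91% at an unadjusted p under 0.05), and that of kidney minus VFAT for 1 of 18680 (0.00535%). Of the 20 clock genes 3 had an unadjusted p under 0.05 for kidney minus Heart, namely Bhlhe40 (1.13, SE 0.302, edgeR adjusted p = 0.405), Npas2 (−3.28, SE 1.01, adjusted p = 0.735) and Arntl (−2.71, SE 1.13, adjusted p = 0.988), and 0 had one for kidney minus VFAT, where 3.71% of all genes did. The lowest p for kidney minus Heart among abundant genes belonged to Rn7s6, Rn7s2 and Rn7s1 (9.98, 9.52 and 9.51, adjusted p = 0.0555 each), structural RNAs of the signal recognition particle, and without control cells 5 they measured 2.86, 2.74 and 2.72. For kidney minus VFAT the lowest belonged to Ren1 (−6.72, adjusted p = 0.0254, and −5.96 with adjusted p = 0.109 without PNx 3), Ltf (−10.62, adjusted p = 0.306, and −3.35 without PNx 3), a neutrophil granule protein, and Lrig3 (1.32, adjusted p = 0.576), a membrane protein with leucine-rich repeats.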

How the data were processed

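RNA was extracted from flash-frozen tissue and sequenced on an Illumina instrument, per the labels' protocols. The submitters' processing notes name the build GRCm38, HISAT2 2.1.0, Trimmomatic 0.38 and DESeq2 (1.20.0, 1.20.1), without roles. How reads were counted, with or without strand and against which annotation, is not given in the sources used here, and overlapping or near-identical genes may share reads. The deposited table holds raw read counts per gene, with no normalization by the authors, for 54232 genes in 76 libraries. Deposited normalized and FPKM tables were not used.

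All 5 kidney arms were fitted once with edgeR 4.0.16 in R 4.3.3 (TMM scaling, filterByExpr, then the quasi-likelihood F test), after a second library of Sham 3 was added to Sham 3. P-values are two-sided, with Benjamini-Hochberg adjustment across every tested gene and calls made below an adjusted p of 0.05. Levels are CPM of the TMM-adjusted total, and gene coordinates and lengths come from GENCODE M21. The contrasts of scrambled minus control cells, and of the kidney against Heart and VFAT, used the same test, with tissues treated as independent because the labels do not tie them to animals. DESeq2 1.42.0 and limma 3.58.1 were alternatives, together with other scalings, filters, covariates and left-out libraries. The edgeR step was tested on simulated data.

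The members and the 36 gene lists were chosen with earlier results of these data known. The named genes are the 6 of lowest p in each direction that average 2 or more in log2 CPM and are not predicted genes, all tested members of the clock lists, the member of lowest p of each other list described, and a fixed set of kidney markers. A few genes that this rule names are not reported here. Bbc3, Sox9, Tyrobp, S100a8, S100a9 and 5 genes called by DESeq2 fall outside it and were named after their values were seen. A depth of 1241590 counts in control cells 5 leaves genes near 1 CPM with single reads.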

Additional observations from a re-analysis of the deposited data

Results flagged for a closer look

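In 17 of 136 sets of 5 libraries (68 named genes in 2 arms) a library stood apart from the other 4 by more than Dixon's 95% value of 0.71. For a neutral set of genes chance gives about 1 in 20. Many of these genes were named for a low p or, as Sox9, Tyrobp and S100a9, after their values were seen. The count can therefore not be set against that rate. PNx 3 was the high library in 12 of the 17 sets and the low one in 1. Its high values were Per1 86.9, Nfil3 18.8, Lcn2 1137, Anxa1 128, Sox9 2.63, Csf3r 18.7, S100a9 1636, Fcer1g 50.1, Tyrobp 105, Ren1 366, G6pdx 97.2 and Cebpd 84.5 CPM, and its low value was Src at 31.9 CPM. The gaps were taken on log2 CPM.

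In the other PNx libraries Cdk1 stood high at 6.31 CPM and Adgre1 low at 0.701 CPM, both in PNx 5. With control cells, Per2 stood low at 13.3 CPM in control cells 4 and Cry1 high at 13.6 CPM in control cells 5.

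Ren1 differed between kidney and VFAT in the control cell contrast by −6.72 (edgeR adjusted p = 0.0254). In VFAT it had 0, 5, 68, 1 and 443 reads in control cells 1 to 5 and 0, 1, 2, 0 and 1 in PNx 1 to 5, so most reads were in control cells 5 and 3, and in kidney it differed by −0.96. The difference between tissues was not called without control cells 1, 2, 3 or 5 or without PNx 3.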

How the results depend on the processing

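Leaving out each library gave 0 calls in control cells against PNx in all 10 cases, with 486 (without PNx 3) to 2231 (without PNx 2) genes at an unadjusted p under 0.05. The count was also 0 without a filter, with DESeq2's size factors, with only the 2 arms (273 genes at an unadjusted p under 0.05), with the second Sham library separate, in PNx 1 and 2 against control cells 1 to 3, without control cells 5 and PNx 3, and, as settings added after seeing the data, with protein-coding genes only and without control cells 4 and 5 (3911 genes at such a p). It was 20 with DESeq2, 2088 with limma voom and quality weights, 18 with the short-to-long gene measure as covariate and 26 in PNx 3 to 5 against control cells 4 and 5, most of these last being small structural RNAs or ribosomal RNA loci. The cause was not tested. Deviations of same-numbered libraries from their arm means correlated at 0.72, 0.72, −0.48, 0.44 and 0.31. These values cannot decide whether the numbers pair the libraries, and the main test does not pair them. With the replicate block 0 genes were called against 586 at an unadjusted p under 0.05, and scrambled against control cells gave 0 calls (lowest edgeR adjusted p = 0.638). That contrast gave 1 call without a filter and 0 to 3 without single libraries. Kidney minus Heart gave 6 without a filter and 0 to 13 without single libraries, and kidney minus VFAT 0 to 1.

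Of 68 named genes 51 kept their direction under all 23 alternatives. With limma voom the direction turned for Nr1d1 (0.18), Clock (0.60), Retn (−0.33), Aqp2 (−0.33) and Src (−0.080). It turned in PNx 1 and 2 against control cells 1 to 3 for Lcn2 (0.33), Il1b (0.13), Alas2 (0.18), Aqp2 (−0.019), Src (−0.15), Gsta2 (0.013) and Cebpd (0.29), and in PNx 3 to 5 against control cells 4 and 5 for Per1 (−0.13) and Umod (−0.14). Without control cells 5 and PNx 3 it turned for Lcn2 (0.36), Tyrobp (0.044) and Src (−0.069), and without control cells 4 and 5 for Nr1d1 (0.19), Clock (0.27), Retn (−0.49), Aqp2 (−0.62) and Src (−0.048). It also turned for Lcn2 under the block (0.39) and for Umod under the covariate (−0.025). Leaving out single libraries gave ranges of −0.11 to 0.13 for Umod, −0.26 to 0.048 for Gsta2, −0.18 to 0.093 for Nr1d1, −0.31 to 0.30 for Clock, −0.36 to 0.60 for Aqp2, −0.033 to 0.097 for Src, −3.80 to 1.65 for Lcn2, −6.51 to 1.52 for S100a8, −6.50 to 1.57 for S100a9, −1.88 to 0.070 for Fcer1g, −2.03 to 0.29 for Tyrobp and −0.0021 to 0.30 for Havcr1. For genes near 1 CPM the depth of control cells 5 limits what can be seen.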
